A study of Mus musculus with 2 samples.

Results

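Angiogenic sinusoidal endothelial cells, here liver sinusoidal cells with RNA of Esm1, Angpt2 and Inhbb, made up 1421 of the 16716 cells kept from 2 single-cell libraries of mouse liver. They were chosen by counts of named genes. A cell had to carry at least 300 genes and at most 25% mitochondrial counts. Its summed Ptprb, Kdr, Stab2 and Gpr182 had to reach 30 per 10000 counts, and its summed Clec4f, Vsig4, Cd5l and C6, genes of Kupffer cells, had to stay under 15 per 10000. Of raw counts, it had to hold fewer than 3 of Rspo3, Wnt9b and Lhx6, which mark central veins, at least 5 of Esm1, Angpt2 and Inhbb together, and fewer than 5 of Cyp26b1, Car8 and Col13a1 together. Cells past this last limit with under 5 counts of the Esm1 trio are called Cyp26b1 Car8 cells here, and cells under both limits are called other sinusoidal cells. The 17 genes of the rule were left out of all counts of genes.

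Each library came from the liver of 1 mouse, so no comparison between them has a replicate check and none was tested. The control label has the genotype Ctgffl/fl, a floxed allele of the gene now called Ccn2 with no Cre named. The knockout label has Cdh5-CreERT2; Ctgffl/fl, in which the Cdh5 promoter, active in endothelial cells, drives an inducible Cre; the floxed allele is shared by both. The labels speak of a male knockout mouse and its littermate, both after partial inferior vena cava ligation (pIVCL), an operation that narrows the outflow of the liver and congests it, and give no age, inducer or time. Sample titles go against the genotypes while the library names match them, so the libraries are called labelled control and labelled knockout after the genotype. Ccn2, the targeted gene, was read first as a check. In the members it stood at 1080 CPM (counts of the gene per 1000000 counts of the summed cells; exact 95% Poisson interval 1059 to 1102) under the control label and at 7.59 CPM (5.12 to 10.8) under the knockout label. Its RNA was found in 795 of 982 members (81.0%) and in 13 of 439 (2.96%), with the low level in the library whose genotype names the Cre.

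Sinusoidal endothelium lines the liver's capillaries, takes up waste molecules through scavenger receptors such as Stab2, and has pores in place of a continuous lining. Esm1 encodes endocan, a secreted proteoglycan made by endothelial tip cells at the front of a growing vessel. Angpt2 encodes angiopoietin 2, a ligand of the Tie2 receptor that can block the calming signal of angiopoietin 1, and Inhbb encodes the beta B chain of activin B and inhibin B. Ccn2 encodes a matricellular protein, CTGF, that is induced by YAP and TGF-beta signalling and known from tissue fibrosis.

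The libraries held 106208933 and 129802501 counts over 10000 barcodes each, with a lowest barcode of 3311 and 2848 counts. They shared 2 barcodes, none of them a member. Median depth of the members was 7345 counts labelled control and 8228 labelled knockout, against 6118 and 5690 in other sinusoidal cells. Because raw counts choose the members, deeper cells pass more easily. Members of both libraries carried median mitochondrial shares of 7.19% and 7.29%. All intervals below cover counting error only and say nothing of differences between mice.

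The members took a far larger share of the sinusoidal cells in the library labelled control. There were 982 among 1876 sinusoidal cells, or 52.3% (Clopper-Pearson 95% interval 50.1 to 54.6), against 439 among 3528 in the library labelled knockout, or 12.4% (11.4 to 13.6), a ratio of 4.21. Among all kept cells the shares were 12.4% (11.7 to 13.2) and 4.99% (4.54 to 5.46), a ratio of 2.49. The other sinusoidal cells took nearly the same part of the sinusoidal cells in both, 44.9% and 42.7%. Cyp26b1 Car8 cells stood the other way, with 22 cells (1.17%) under the control label and 1335 (37.8%) under the knockout label. A further 30 cells (1.60%) and 248 cells (7.03%) passed both count limits and belong to neither kind. With every cell thinned to 4000 counts, 92 and 378 shallower sinusoidal cells were left out. Thinning also loosened the limit on Rspo3, Wnt9b and Lhx6, so further cells entered the sinusoidal set. It loosened the limit on Cyp26b1, Car8 and Col13a1 as well. Of the sinusoidal set after thinning, 567 (28.5%) and 260 (7.89%) were members. The share was still the larger in the library labelled control.

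The summed count of Esm1, Angpt2 and Inhbb had no gap at the limit of 5. In the library labelled control 163 cells stood at 4 counts, just outside, and 143 at 5, just inside, with 115 and 70 such cells in the library labelled knockout. Members reached a median of 9 and 8 counts and a highest of 74 and 66. Of the members, 106 (10.8%) and 65 (14.8%) held 20 counts or more. Below the limit, cells with no count of any of the trio were the largest class in the library labelled knockout and not in the library labelled control.

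**Figure D1:**
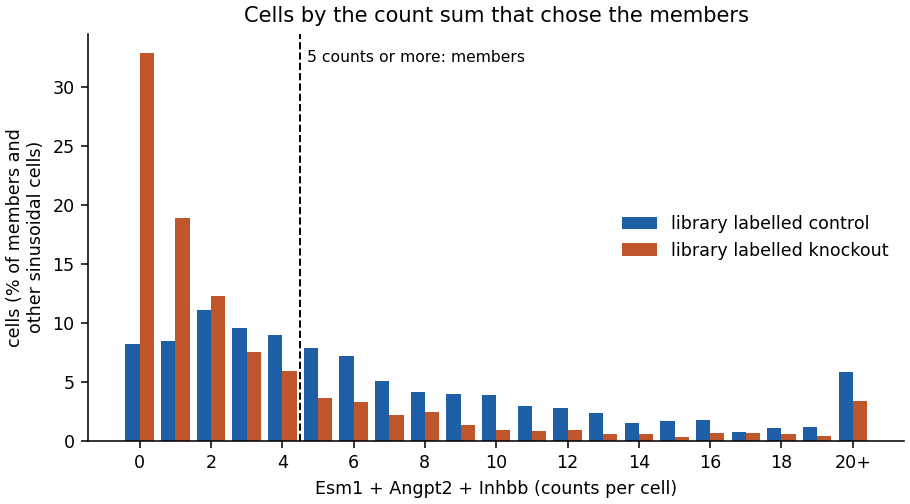
Share of members and other sinusoidal cells (y axis, percent) by summed counts of Esm1, Angpt2 and Inhbb per cell (x axis, the last bar holding 20 counts or more), for both libraries. The dashed line marks the limit of 5 counts; 163 and 115 cells stood just below it at 4 counts.

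The members were not of one make in the 2 libraries. Esm1 itself, fixed by the rule and given as a description, stood at 629 CPM (613 to 645) in the members labelled control and 944 CPM (914 to 975) in those labelled knockout. Angpt2 was close to level, at 217 CPM (207 to 227) and 229 CPM (215 to 245). Inhbb went the other way, from 391 CPM (378 to 404) to 178 CPM (165 to 192). In other sinusoidal cells, which the rule held under 5 counts of the trio, Inhbb stood at 138 and 60.4 CPM and Esm1 at 87.2 and 56.2 CPM. Lower Inhbb under the knockout label was therefore not particular to the members. Among the members labelled knockout Esm1 weighed more and Inhbb less.

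Cell by cell, the same choosing counts gave the same picture of the members. Esm1 had the most counts of the trio in 513 of 982 members (52.2%) labelled control and in 321 of 439 (73.1%) labelled knockout. Inhbb led in 330 (33.6%) and 51 (11.6%), Angpt2 in 70 (7.13%) and 48 (10.9%), and the rest were ties. All 3 RNAs were found together in 502 members (51.1%) and 161 members (36.7%). Esm1 and Angpt2 without Inhbb were found in 96 members (9.78%) and 128 members (29.2%). As a gauge of free RNA, B cells of the same libraries, at median depths of 4650 and 4327.5 counts, carried an Esm1 count in 4.64% and 1.06% of cells. Their Inhbb share was 0% and 0.53%. Stellate cells carried an Angpt2 count in 23.8% and 5.52% of cells. In the members Esm1 was found in 84.9% and 89.3% and Inhbb in 87.1% and 56.3%. These shares of the members were set in part by the rule, so the contrast is a description only.

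Of the other labelled markers, Lyve1 was over 1.5-fold higher in members than in other sinusoidal cells of the library labelled knockout, and neither Lyve1 nor Chst2 was so in the library labelled control. Lyve1, a hyaluronan receptor of sinusoidal and lymphatic endothelium, stood at 4246 CPM in members and 3690 CPM in other sinusoidal cells of the library labelled control, and at 2236 CPM and 1293 CPM in the library labelled knockout. It was lowest, at 991 CPM, in Cyp26b1 Car8 cells of the library labelled knockout. Chst2, a sulfotransferase that acts on N-acetylglucosamine, stood at 369 CPM against 340 CPM and at 364 CPM against 294 CPM, so its levels lay close together in all 3 kinds of cell. The defining endothelial genes that the rule did not use were high throughout: Cdh5, the junction protein VE-cadherin, stood at 877 and 998 CPM in members, and Pecam1, another junction protein, at 1028 and 1156 CPM. Stab1, a scavenger receptor of sinusoidal cells, stood at 1216 and 1447 CPM. The name of sinusoidal endothelium therefore rests on genes outside the rule too.

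**Figure D2:**
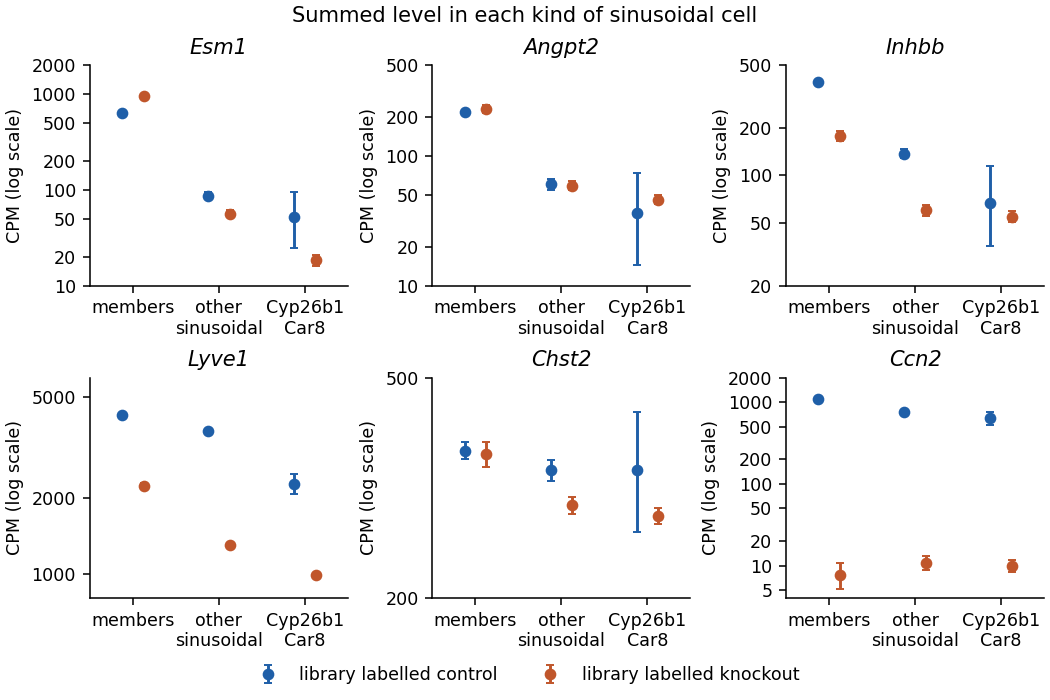
Summed level (CPM, log axes that differ between panels) of the 5 marker genes and Ccn2 in members, other sinusoidal cells and Cyp26b1 Car8 cells, in both libraries, with exact 95% Poisson intervals for counting error. Lyve1 lay at 4246 and 2236 CPM in members, above the other cells of the same library, while Chst2 differed little; the Cyp26b1 Car8 cells labelled control number 22.

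RNA of other cell types was present in the members and differed between libraries. Summed markers of Kupffer cells came to 1157 CPM in members labelled control and 412 CPM in those labelled knockout, those of stellate cells to 777 and 233 CPM, those of hepatocytes to 675 and 159 CPM, and those of monocytes to 1119 and 297 CPM. Neutrophil markers ran the other way, at 73.2 and 426 CPM. All 12 Kupffer, all 10 stellate and all 8 hepatocyte markers were found in both libraries. The plasma cell gene Mzb1 was at 0 in members of both, and Krt19, Krt7 and Sox9, genes of bile duct cells, and Pdpn and Ccl21a, genes of lymphatic vessels, were at 0 in those labelled knockout. The part of such RNA in the differences below was not tested. Genes were compared with gates of hepatocytes, Kupffer cells, stellate cells, B cells, T cells and neutrophils of the same library. Another cell type below means one of these. Mesothelial, monocyte, dendritic and large-vessel cells had no gate and were not checked. Where a gene was over 2-fold higher in such a gate than in the group where it is higher, this is said beside it.

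Against other sinusoidal cells of the same library, the members differed in few genes outside the rule. A gene was counted when it had 20 counts in all, at least 10 CPM in 1 group and a ratio of 1.5-fold or more. In the library labelled control 94 of 9356 genes (1%) were that much higher in members and 157 (1.68%) lower, and in the library labelled knockout 115 of 8970 (1.28%) were higher and 372 (4.15%) lower. Of 8703 genes measured in both, 17 (0.195%) were higher in both, 47 (0.54%) were lower in both and 11 (0.126%) went opposite ways. Of the 17, 6 were over 2-fold higher in another cell type of at least 1 library and 11 in neither; of the 47, these were 30 and 17.

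Among genes higher in members of both libraries were 2 of the listed tip cell genes, Apln and Kcne3. Apln, the peptide ligand apelin made by tip cells, stood at 111 CPM in members and 49.4 CPM in other sinusoidal cells labelled control, and at 38.5 and 11.3 CPM in those labelled knockout, log2 ratios of 1.17 (0.99 to 1.36) and 1.77 (1.41 to 2.13). It was found in 235 of 982 and 38 of 439 members, with up to 72 and 28 counts in 1 cell, and the intervals do not allow for such clumping. Kcne3, a potassium channel subunit, stood at 58.5 against 34.9 CPM and at 40.7 against 8.57 CPM. These were the tip cell genes that passed 1.5-fold in both libraries, 2 of the 18 listed genes measured in both; 13 of the 18 had a ratio above 0 in both. In all 4 of 21 tip cell genes were higher and 1 lower in members labelled control, and 2 of 18 were higher and 1 lower in those labelled knockout. The lower one labelled control was Cd34, at 21.5 against 36.1 CPM, which stood at 32.1 against 28.5 CPM labelled knockout. The lower one labelled knockout was Ednrb. Over all genes 1% and 1.28% were higher and 1.68% and 4.15% lower. The pore-forming potassium channel gene Kcnj8 stood at 111 against 57.7 CPM and at 91.8 against 30.5 CPM, log2 ratios of 0.94 and 1.59. Its relative Kcnj2, picked after its values were seen, stood at 16.0 against 7.41 CPM and at 32.4 against 8.57 CPM, but reached 41.6 CPM in another cell type labelled control, over 2-fold the members' level.

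Of the genes that led by the smaller of the 2 ratios, Kcnj8 and Cxcl9 passed 1.5-fold in both libraries, and the other 8 did not. Cxcl9, an interferon-induced chemokine that draws T cells, stood at 687 against 448 CPM and at 843 against 383 CPM. Plau, the protease urokinase, stood at 247 against 167 CPM and at 171 against 91.6 CPM, and Odc1, the first enzyme of polyamine synthesis, at 264 against 181 CPM and at 152 against 64.7 CPM. In each of these the ratio was the larger in the library labelled knockout, where the members were set against a lower level in the other cells; the difference between the ratios was not tested. Nrarp, a target and inhibitor of Notch signalling, stood at 111 against 76.8 CPM and at 73.1 against 54.6 CPM, and Nes, the filament protein nestin, at 137 against 104 CPM and at 119 against 77.5 CPM. Ifi207, an interferon-induced gene, Rell1, Agpat5 and Pdk4 completed the 10, with smaller ratios of 0.41 to 0.47 on the log2 scale.

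The largest ratio in both libraries belonged to a gene of low level. Gzmk, which encodes the protease granzyme K of T cells, stood at 20.2 CPM (17.4 to 23.3) in members and 4.45 CPM in other sinusoidal cells labelled control, and at 28.8 CPM (23.8 to 34.6) and 1.61 CPM in those labelled knockout, log2 ratios of 2.18 and 4.16. Another cell type reached 49.5 CPM labelled control, over 2-fold the members' level, and 46.5 CPM labelled knockout. Summed T and NK cell markers stood at 115 and 107 CPM in members and at 119 and 116 CPM in other sinusoidal cells, and their part in the Gzmk level was not tested. Peg10, a gene derived from a retrotransposon, had log2 ratios of 1.03 and 2.37, and Uchl1, a deubiquitinase best known from neurons, at 28.1 against 11.2 CPM and at 22.5 against 5.85 CPM. Gzmk, Peg10 and Uchl1 were singled out after their values were seen. Ccl2, a chemokine for monocytes, was higher in members as well, at 54.0 against 25.2 CPM and at 24.5 against 9.57 CPM, but reached over 2-fold more in another cell type of each library.

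Genes lower in members were led by junction, transport and vein-side genes. Jam2, a junction adhesion molecule, stood at 71.6 against 173 CPM labelled control and at 90.1 against 221 CPM labelled knockout, log2 ratios of -1.27 and -1.29. Slco2a1, a prostaglandin transporter, stood at 28.2 against 57.2 CPM and at 49.3 against 143 CPM, and Efnb1, a ligand of Eph receptors, at 93.1 against 166 CPM and at 56.4 against 113 CPM. Gja4, the gap junction protein connexin 37, stood at 65.8 against 111 CPM and at 55.1 against 163 CPM. Ly6a, the surface protein Sca-1, stood at 195 against 354 CPM and at 211 against 395 CPM, and at 745 CPM in another cell type labelled control, over 2-fold higher. Stox2, Cbfa2t3, Thbd, Prcp, Lifr and Ddit4 completed the 10 lowest by rule, with the ratio nearer 0 between -0.68 and -0.38 on the log2 scale.

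Genes of the vein side of the sinusoid were lower in the members of each library. Cells rich in Rspo3, Wnt9b and Lhx6 had been removed from both sides by raw counts, a limit that deeper cells such as members reach more easily. Rspo3 remained at 13.6 CPM in members and 21.1 CPM in other sinusoidal cells labelled control, and at 6.07 and 9.68 CPM labelled knockout. The part of this limit in the values below was not tested. Of 9 such genes measured, 5 were lower in members labelled control, with a list median log2 ratio of -0.71 against -0.02 over all genes, and 6 in members labelled knockout, with -0.97 against -0.02. None was higher. Wnt2, a Wnt ligand of vein-side sinusoidal cells, stood at 20.5 against 33.6 CPM and at 43.3 against 84.5 CPM, Cdh13, the cell adhesion protein T-cadherin, at 26.3 against 49.3 CPM and at 36.4 against 116 CPM, and Vwf, von Willebrand factor, at 12.3 against 36.2 CPM and at 1.26 against 18.3 CPM. Medians of the other 25 lists ran from -0.14 to 0.21 under the control label and from -0.29 to 0.31 under the knockout label.

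**Figure D3:**
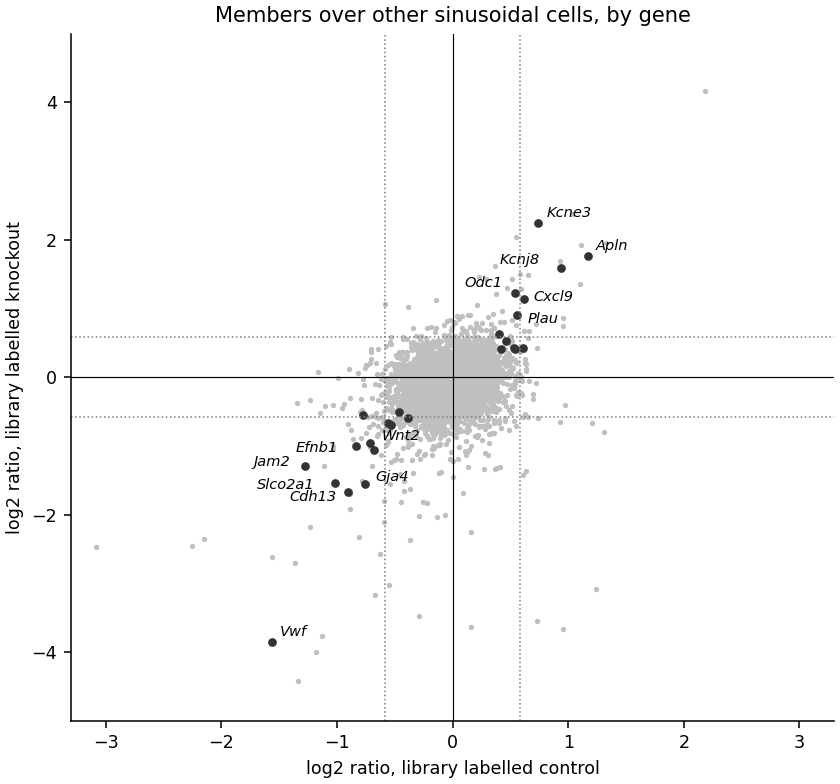
Log2 ratio of members over other sinusoidal cells for each gene measured in both libraries, outside the genes of the rule, in the library labelled control (x axis) and the library labelled knockout (y axis). Black points are genes named in the text, and dotted lines mark 1.5-fold; 17 genes lie past it above in both libraries and 47 below.

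Several levels moved by steps with the summed level of Esm1, Angpt2 and Inhbb, taken per 10000 counts over members and other sinusoidal cells. In the library labelled control Ccn2 stood at 554 CPM in cells with none of the trio, at 887 CPM in cells from 5 to 10 and at 1824 CPM in cells at 20 or more. Lyve1 stood at 2702, 4269 and 5215 CPM in the same classes, and at 1048, 1908 and 2548 CPM in the library labelled knockout. Kcnj8 went from 21.5 to 190 CPM and from 15.7 to 120 CPM between the lowest and the highest class, and Jam2 from 408 to 63.4 CPM and from 255 to 77.4 CPM. The marker Chst2 went from 266 to 440 CPM and from 250 to 406 CPM between the same classes. Plvap, which encodes the diaphragm protein of endothelial pores, showed no such order in either library. Depth did not follow the classes. Median depth labelled control was 5869 counts in the lowest class, 8691 in the next and 5933.5 in the highest, and labelled knockout it was 5174, 7523 and 6363 counts. These are descriptions along a quantity that the rule used.

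**Figure D4:**
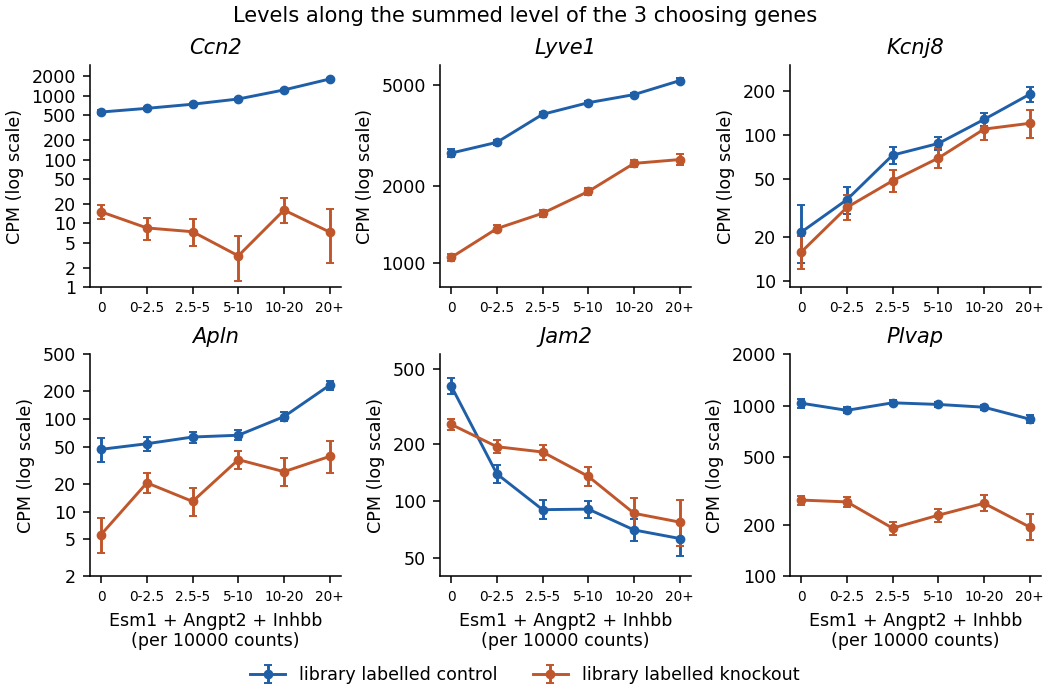
Summed level (CPM, log axes) of 6 genes in classes of sinusoidal cells by Esm1, Angpt2 and Inhbb per 10000 counts (x axis), in both libraries, with exact 95% Poisson intervals. Ccn2 in the library labelled control went from 554 to 1824 CPM and Jam2 from 408 to 63.4 CPM, while Plvap had no such order.

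Members led by Esm1 and members led by Inhbb stood apart in some genes the rule did not use. No count over all genes is given for this split, so the genes named have no base rate. The Inhbb-led members labelled knockout are 51 cells. In Esm1-led cells Galnt15, an enzyme that starts O-linked sugar chains, stood at 253 CPM against 128 CPM in Inhbb-led cells labelled control, and at 416 against 224 CPM in those labelled knockout. Efnb2, an ephrin ligand of arterial and sprouting endothelium, stood at 102 against 57.4 CPM and at 218 against 85.2 CPM, and Dll4, the Notch ligand of tip cells, at 342 against 238 CPM and at 415 against 258 CPM. Adm, the vasodilator peptide adrenomedullin, stood at 122 against 65.8 CPM and at 120 against 70.1 CPM. Apln, the tip cell peptide, stood the other way, at 80.9 against 144 CPM and at 33.9 against 45.5 CPM. Labelled knockout these are 95 and 24 counts, and Apln was found in 38 of 439 members there, with up to 28 counts in 1 cell. That difference can therefore rest on few cells. Labelled control these are 363 and 483 counts, with up to 72 in 1 cell.

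Inhbb-led cells carried more of some genes that were low in the members as a whole. Gja4 stood at 105 against 43.9 CPM and at 100.4 against 50.4 CPM, Thbd, the anticoagulant receptor thrombomodulin, at 74.1 against 35.4 CPM and at 70.1 against 36.4 CPM, and Jam2 at 103 against 54.2 CPM and at 167 against 72.1 CPM. Ccn2 in the library labelled control stood at 1258 CPM in Esm1-led, 1577 CPM in Angpt2-led and 782 CPM in Inhbb-led cells. Inhbb-led cells were also deeper, at a median of 7944.5 against 6861 counts labelled control and 9731 against 7823 labelled knockout. Their leading gene stood lower, Inhbb at 617 and 568 CPM against Esm1 at 1071 and 1267 CPM in Esm1-led cells. Gja4, Thbd and Jam2 were also lower in the highest than in the lowest class of the trio's summed level. The part of depth and of that level in this split was not tested. The genes named here for the leading-gene split were picked after their values were seen.

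Between the libraries the members differed in many genes, and so did the other sinusoidal cells. Of 9322 genes measured, 480 (5.15%) were at least 1.5-fold higher and 1240 (13.3%) lower in members labelled knockout; in other sinusoidal cells 539 of 9456 (5.7%) were higher and 1157 (12.2%) lower. Of the lower genes, 910 (73.4%) were over 2-fold higher in another cell type of the library labelled control, against 87 (18.1%) of the higher genes on the side labelled knockout. No such share over all genes measured is given, here or for the other counts of this kind, so they have no base rate. Mitotic members were fewer as well, as given with the cell cycle list. None of these values separates the genotype from the mouse or the library.

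Among genes at 50 CPM and 100 counts that were not over 2-fold higher in another cell type, Depp1 had the highest ratio in members labelled knockout. Depp1, a FOXO-regulated gene, stood at 120 CPM (113 to 128) in members labelled control and 695 CPM (669 to 722) in those labelled knockout, a log2 ratio of 2.53 (2.43 to 2.63), against 1.76 in other sinusoidal cells. Arrdc3, an arrestin-domain protein, went from 18.0 to 76.9 CPM, and Fbxo32, a ubiquitin ligase subunit known from muscle wasting, from 21.4 to 63.7 CPM. Ier3, an immediate early gene, went from 18.8 to 88.8 CPM, Bhlhe40, a transcriptional repressor, from 44.7 to 162 CPM, and Gpr155, a lysosomal cholesterol sensor, from 52.1 to 216 CPM. Tpbgl, Tcp11l2, Enpep, an aminopeptidase that cleaves angiotensin II, and Fas, a death receptor, completed the 10. All 10 were higher in other sinusoidal cells of the library labelled knockout as well, by 1.02 to 2.17 on the log2 scale.

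The lowest under the same limits was Ccn2, with a log2 ratio of -7.15 (-7.72 to -6.64), against -6.12 in other sinusoidal cells. Of its 30 counts in members labelled knockout 17 lay in 1 cell, and the interval does not allow for such clumping. The difference between these 2 ratios was not tested. Igfbp5, a binding protein of insulin-like growth factors, went from 89.9 CPM to 1.01 CPM, Fmo2, a monooxygenase, from 78.5 to 1.26 CPM, and Fbln2, the matrix protein fibulin 2, from 63.0 to 1.52 CPM. In other sinusoidal cells these stood at 80.6 and 12.6 CPM, 96.1 and 14.1 CPM, and 143 and 24.4 CPM. Labelled control, Igfbp5, Fmo2 and Fbln2 stood at 187, 137 and 131 CPM in Inhbb-led members and at 42.3, 45.0 and 20.1 CPM in Esm1-led members. In Esm1-led members labelled knockout they stood at 1.43, 1.43 and 2.14 CPM. The part of the mix of leading genes in these differences was not tested, and the number of cells that carry the counts is not given. Inhbb-led members labelled knockout held no count of these 3 genes. Steap2, a metalloreductase, went from 55.8 to 1.77 CPM, and Xylt1, which starts glycosaminoglycan chains, from 96.1 to 32.4 CPM. Prrg3, Gpm6a, Plagl1 and Pparg, a nuclear receptor of lipid metabolism, completed the 10, and each had a log2 ratio of -2.10 or lower in other sinusoidal cells too. Gpm6a was also listed as a marker of mesothelial cells and Fbln2 of large vessels, and neither type had a gate.

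Lists of genes were read against the median of all genes, which was -0.05 on the log2 scale. Of all 9322 genes measured in members, 5.15% were called higher and 13.3% lower. Genes of tip cells and sprouting were lower in members labelled knockout in 9 of 21 cases and higher in 1, with a median of -0.52, and other sinusoidal cells had a median of -0.55. Plvap stood at 969 CPM (949 to 989) and 233 CPM (218 to 249) and Apln at 111 (105 to 118) and 38.5 (32.6 to 45.1). Of the lower genes, Ednrb, Igfbp3, Plvap, Plaur and Cxcr4 were over 2-fold higher in another cell type, and Apln, Marcksl1, Mcam and Ctla2a were not. Marcksl1, an actin regulator, went from 851 to 413 CPM. Lama4, a laminin chain of vessel basement membranes, was the one gene higher, at 224 and 413 CPM, and Dll4 stood at 292 and 381 CPM, under 1.5-fold.

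The receptor and ligand lists of vessel growth held few differences. Of 7 genes of the VEGF system 1 was higher, the co-receptor Nrp1, at 653 and 1252 CPM, and none was lower. The receptors Flt1, at 754 and 686 CPM, and Flt4, at 1207 and 1390 CPM, differed by less than 1.5-fold. None of 3 measured genes of the angiopoietin and Tie system passed the size: the receptor Tek stood at 187 and 255 CPM and its partner Tie1 at 551 and 437 CPM. Of 6 genes of the activin system 2 were lower, Fstl1 and Bambi, both over 2-fold higher in another cell type. Of 9 Notch genes, the target Hes1 was higher, at 284 and 722 CPM, while Nrarp and the ligand Jag1 were lower, Jag1 being over 2-fold higher in another cell type. So the targets Hes1 and Nrarp stood opposite ways.

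Of 21 genes of sinusoidal identity, 9 were higher in members labelled knockout and 2 lower, with a median of 0.25, against 0.29 in other sinusoidal cells. Dnase1l3, a secreted DNase, stood at 2262 and 4677 CPM, Clec4g, a lectin of sinusoidal cells, at 1370 and 2717 CPM, and Fcgr2b, an Fc receptor that clears immune complexes, at 2850 and 5395 CPM. Aass, an enzyme of lysine breakdown, stood at 171 and 478 CPM. None of the 9 was over 2-fold higher in another cell type. Lyve1, with 4246 and 2236 CPM, was one of the lower genes of the list. Bmp2, the ligand through which sinusoidal cells set hepcidin in hepatocytes, stood at 726 and 1620 CPM, and the inhibitory Smad7 at 178 and 423 CPM, so both genes called higher among 22 of the BMP and TGF-beta system were over 2-fold higher; the 5 called lower were over 2-fold higher in another cell type.

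**Figure D5:**
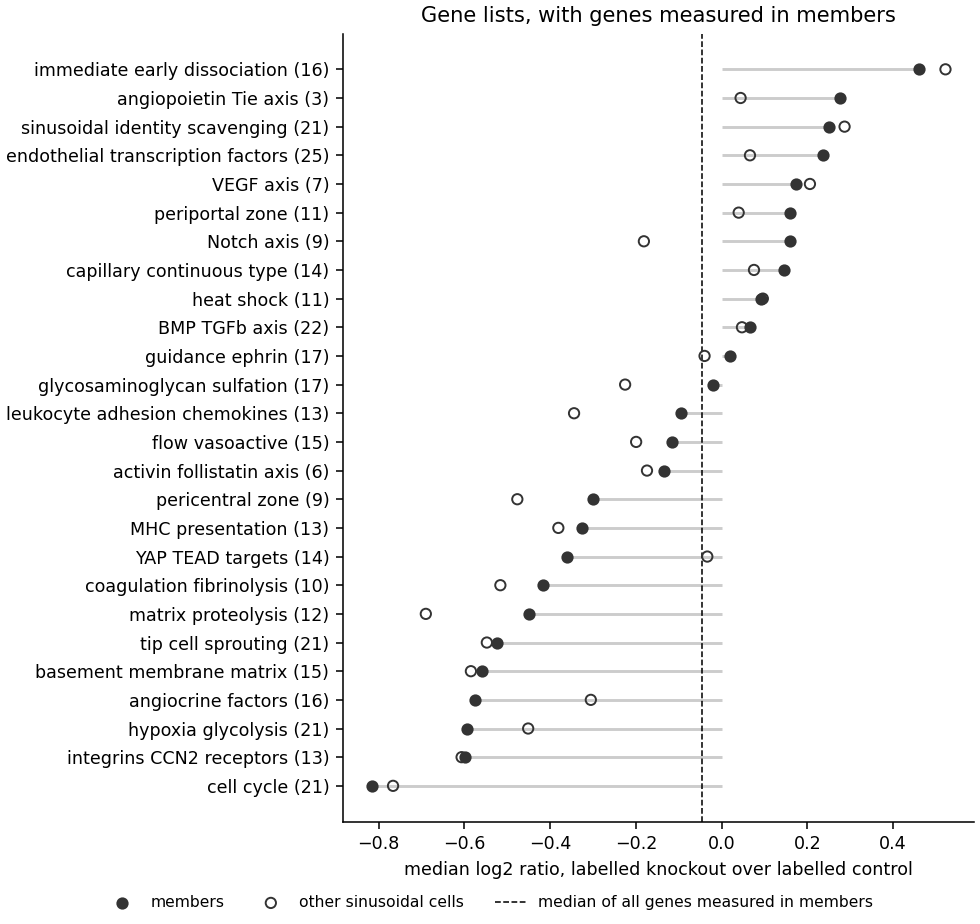
Median log2 ratio of the library labelled knockout over the library labelled control for 26 gene lists (number of genes measured in members in brackets), in members (filled) and other sinusoidal cells (open). The dashed line is the median of all genes measured in members, -0.05; the cell cycle list lies lowest in both kinds of cell, and no list was tested.

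Of 21 cell cycle genes 14 were lower, with a median of -0.82. Mki67, a protein of dividing cells, stood at 95.2 and 45.0 CPM and Cdk1, the kinase of mitotic entry, at 43.7 and 24.8 CPM. Cells with at least 3 counts of 10 mitotic genes were 90 of 982 members (9.16%, 7.43 to 11.1) labelled control and 9 of 439 (2.05%, 0.94 to 3.86) labelled knockout; in other sinusoidal cells they were 8.08% and 2.32%, and thinned to 4000 counts the members had 4.94% and 1.19%. Of the 14 lower genes, 13 were over 2-fold higher in another cell type, and without the mitotic cells, a setting chosen after seeing the data, 3 of 10 measured genes were lower.

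Of 21 genes of glycolysis and hypoxia 11 were lower and none higher, with a median of -0.59. The glucose transporter Slc2a1 stood at 28.2 and 8.10 CPM, the phosphofructokinase Pfkl at 63.4 and 33.9 CPM, and the dehydrogenase Gapdh at 457 and 303 CPM. Pfkl was the one among the 11 that was not over 2-fold higher in another cell type. Vegfa, a hypoxia target, stood at 14.4 and 16.2 CPM. So the lower genes were mostly of glycolysis.

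Among 13 integrins and other receptors, several of them known to bind CCN2, 7 were lower (median -0.60) and 1 was higher. Itga3, at 40.7 and 4.55 CPM, Itga5, at 132 and 76.1 CPM, and Itgb3, at 202 and 122 CPM, were among the 4 lower genes not over 2-fold higher in another cell type. Itga9 was the higher one, at 369 and 588 CPM. Of 15 matrix genes 7 were lower, among them the basement membrane collagen chain Col4a2, at 788 and 484 CPM; 6 of the 7, Col4a2 included, were over 2-fold higher in another cell type. Col4a1, its partner chain, stood at 1283 and 922 CPM, under 1.5-fold. Of 14 targets of YAP 6 were lower: Ccn2, the targeted gene, Ajuba, and 4 that were over 2-fold higher in another cell type. Ccn1, a related matricellular gene, stood at 74.0 and 64.5 CPM, under 1.5-fold.

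Of 13 genes of antigen presentation 5 were lower, all of class II presentation. H2-Aa, a class II chain, stood at 610 and 227 CPM and Cd74, its invariant chain, at 545 and 211 CPM, while the class I gene H2-K1 stood at 1781 and 1969 CPM. All 5 were over 2-fold higher in another cell type. Immediate early genes, which cell isolation can induce, were higher in 5 of 16 cases and lower in 3, with a median of 0.46; Egr1 among the higher and Myc and Nr4a1 among the lower were over 2-fold higher in another cell type. Their summed level in members was 4757 and 7525 CPM. Fos stood at 751 and 1760 CPM and Jun at 800 and 1321 CPM, and heat shock genes summed to 3960 and 3847 CPM.

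Of the other lists, those of angiocrine factors, proteolysis, coagulation and the vein side had medians of -0.58, -0.45, -0.42 and -0.30. The median of all genes was -0.05. Of 25 endothelial transcription factors 5 were higher, among them Meis2, at 310 and 531 CPM, and Sox7, at 58.6 and 105 CPM, and the 3 lower ones were over 2-fold higher elsewhere. Of 16 angiocrine factors, signals that endothelium sends to its neighbours, 8 were lower with a median of -0.58, and 6 of the 8 were over 2-fold higher in another cell type; Kitl, one of the others and the ligand of Kit, stood at 222 and 132 CPM. Genes called higher and lower numbered 3 and 4 of 14 for continuous capillaries, 1 and 4 of 9 for the vein side, 2 and 2 of 11 for the portal side, 2 and 4 of 17 for glycosaminoglycans, 0 and 5 of 15 for flow responses, 1 and 6 of 13 for leukocyte adhesion, 0 and 4 of 10 for coagulation, 3 and 2 of 17 for guidance, 1 and 5 of 12 for proteolysis and 3 and 0 of 11 for heat shock. Over all genes 5.15% were called higher and 13.3% lower, and against these shares counts from such small lists are descriptions only. Over 2-fold higher in another cell type were 3 of the 5 lower flow genes, 5 of the 6 for adhesion and 3 of the 4 for coagulation. For glycosaminoglycans these were 3 of the 4, for proteolysis 3 of the 5 and for continuous capillaries 2 of the 4. For the vein side these were 1 of the 4, and for the portal side and guidance 1 of the 2 each. Of the higher genes, these were all 3 for heat shock, 1 of the 3 for continuous capillaries, and the 1 each for adhesion and proteolysis.

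Within the library labelled knockout the members were set against its 1335 Cyp26b1 Car8 cells, and 278 of 8857 genes (3.14%) were at least 1.5-fold higher in members and 302 (3.41%) lower. Kcne3 stood at 40.7 CPM in members and 3.21 CPM in Cyp26b1 Car8 cells, Apln at 38.5 and 4.97 CPM, and Cxcl9 at 843 and 243 CPM. Gja4 ran the other way, at 55.1 and 318 CPM, as did Wnt2, at 43.3 and 130 CPM. In all 5 the other sinusoidal cells stood between, at 8.57, 11.3, 383, 163 and 84.5 CPM in the same order. Of 18 tip cell genes 8 were higher in members and 1 lower, their median log2 ratio being 0.52 against 0.01 over all genes, and of 7 vein-side genes 6 were lower and none higher, with a median of -1.10. Ccn2 was low in all 3 kinds, at 7.59 CPM in members, 10.9 CPM in other sinusoidal cells and 9.94 CPM in Cyp26b1 Car8 cells.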

How the data were processed

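Whole-number counts per gene and barcode were deposited by the authors, from BD Rhapsody whole-transcriptome libraries sequenced on a DNBSEQ-G400RS, per the labels' protocols. Build GRCm39 is named in the submitters' processing notes; no source used here gives the aligner, molecule counting or cell calling. Hepatocytes, dead cells and erythrocytes were depleted before loading, per the labels. Counts of the chosen cells were summed per library and scaled to CPM. With 1 library per label no test was made. Ratios carry exact conditional 95% intervals, levels exact Poisson ones and shares Clopper-Pearson ones. A library at 0 was set to 3 counts in a ratio. A gene needed 20 counts and 10 CPM in 1 group, and 1.5-fold to be called.

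Named genes were the 5 markers, Ccn2, and per comparison the top 10 and bottom 10 ratios of genes at 50 CPM and 100 counts (members over other cells ranked by the ratio nearer 0), leaving out rule genes, technical genes and genes over 2-fold higher in another cell type's gate, plus up to 4 genes a list. Genes outside this rule are comparison values, or were chosen after their values were seen. Members and lists were chosen with earlier results of these data known. Scrublet, in Scanpy 1.11.5, called 1 barcode per library (0.0126% and 0.0114%) and so had not worked; doublets were left in and its top 5% of scores removed as an alternative. TMM factors came from edgeR 4.0.16 in R 4.3.3. Python 3.11.15, SciPy 1.17.1 and Matplotlib 3.10.9 were used, and the ratio and its interval were tested on simulated data.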

Additional observations from a re-analysis of the deposited data

Results flagged for a closer look

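In the library labelled knockout 7.03% of the sinusoidal cells, 248 in number, passed both count limits, that of Esm1, Angpt2 and Inhbb and that of Cyp26b1, Car8 and Col13a1, and so entered no group of the report; in the library labelled control these were 30 cells, or 1.60%. Their median depth was 13078.5 and 9967.5 counts, above that of members, 8228 and 7345 counts. The part of doublets and of depth in these cells was not tested.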

How the results depend on the processing

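No paired analysis was possible because each label has 1 library. The share of members stayed lower in the library labelled knockout under all alternatives run. Its log2 ratio of -2.07 went to -1.83 with at least 3 counts of the trio, -2.23 with at least 10, -1.66 with at least 3 counts of Esm1 and Angpt2 and none asked of Inhbb, -1.85 thinned, -1.93 at 10% mitochondrial counts and -1.47 without the Cyp26b1, Car8 and Col13a1 condition. For Ccn2 the ratio of -7.15 went to -6.40 with at least 10 counts, -6.15 without that condition, -8.49 with an endothelial gate of 60 per 10000, -8.31 with a Kupffer gate of 5, -8.44 without the top 5% of Scrublet scores and -7.91 as a mean over cells; it rests on 30 counts in 13 cells. With cells under 10 per 10000 of other types' markers alone, chosen after seeing the data (273 and 283 members), it went to -9.07.

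Counts of genes turned mostly on the minimum and the size called. With a minimum of 50 CPM, no CPM minimum and 2-fold, the 480 genes higher in members labelled knockout became 235, 790 and 122, and the 1240 lower 335, 2656 and 630. Against Cyp26b1 Car8 cells, 278 became 82, 801 and 92, and 302 became 81, 1077 and 84. Higher and lower there also became 498 and 524 with at least 10 counts, 164 and 154 without the Cyp26b1, Car8 and Col13a1 condition, and the higher 465 thinned. Against other sinusoidal cells in both libraries, 17 higher became 2, 65 and 6, and 47 lower became 6, 225 and 15. Thinned these were 48 and 416, where thinning also loosens the limit on vein-side genes. Lower in both were 23 without the Cyp26b1, Car8 and Col13a1 condition and, chosen after seeing the data, 85 in Esm1-led members, and higher in both 31 under 10 per 10000 of other types' markers. With TMM factors and median-of-ratios factors all ratios between libraries shifted by 0.06 and 0.07 on the log2 scale.

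Of 20 genes named per comparison, none changed sign under any alternative. List medians took the other sign under at least 1 alternative for 11 of 26 lists between libraries and for 16 each for members over other cells labelled control and labelled knockout. Those whose reported median was larger than the median half-interval of its genes and turned were that of the angiopoietin and Tie list, to -0.030 without a CPM minimum and, for members over other cells, to 0.058 and 0.046 thinned; that of the vein-side list between libraries, to 0.060 with at least 3 counts of Esm1 and Angpt2 and 0.13 without the Cyp26b1, Car8 and Col13a1 condition; that of continuous capillaries, to -0.058 under 10 per 10000 of other types' markers; and that of angiocrine factors over other cells labelled control, to -0.034 with the gate of 60. The cause was not tested. With cells under 10 per 10000 of other types' markers the cell cycle list had 7 of 21 genes lower, with a median of -0.48. With 1 mouse a label, genotype, mouse and library cannot be told apart, and genes under 10 CPM in both groups compared were left out of the main counts by the minimum set.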
